A study of Rattus norvegicus with 8 samples.

Results

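The vascular endothelial growth factor (VEGF) ligands and receptors were followed in hippocampal RNA of rats (male, Sprague Dawley) that breathed normal air or lived under hypobaric hypoxia. The family was taken as every non-control array probe that the scanner files name Vegfa, Vegfb, Vegfc, Figf, Pgf, Kdr, Flt1, Flt4, Nrp1 or Nrp2. This gave 10 genes on 15 probes, of 26214 gene names and 30367 probes on the array, and all 15 carry a transcript that the RefSeq gene table lists under the same gene, with Figf now named Vegfd. The comparison covered 4 groups of 2 arrays. The normoxia rats stayed unexposed. The day 1, day 3 and day 7 rats spent that time in a decompression chamber at the equivalent of 25000 ft, where the effective oxygen concentration was 8%, although the exposure field of the group titled day 7 reads 5 days. RNA came from the hippocampal region as a whole, the age of the rats is not given in the sources used here, and whether both arrays of a group stand for different animals is not given either, so the p-values measure only the spread between arrays, which may be technical.

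VEGF ligands are secreted dimers that drive the growth, survival and leakiness of vessels. Vegfa, whose transcription is raised in low oxygen through the hypoxia-inducible factors (HIF), binds Kdr (VEGFR-2), the main signalling receptor of blood vessel endothelium, and Flt1 (VEGFR-1), which binds it more tightly but signals weakly and can act as a decoy. Vegfb and Pgf bind Flt1, Vegfc and Figf bind Flt4 (VEGFR-3) and can activate Kdr, and the neuropilins Nrp1 and Nrp2 are co-receptors that also bind class 3 semaphorins on growing axons.

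Levels are log2 processed signals relative to each array's own 75th percentile, so 0 is the brightness that 75% of probes do not exceed. The number of arrays limits the precision. Such a level compares arrays for 1 probe and does not compare probes with each other. Between 72.6% and 85.6% of spots lay well above background, with the highest share in normoxia, and the 75th percentile itself ran from 2684 intensity units in normoxia to 1393 on day 7. A difference was called at an adjusted p under 0.05 in a limma model over 24678 probes. Centring arrays on their median instead moved the median difference of all probes on day 7 from -0.07 to 0.23, and the share of called probes that were higher from 48.5% to 70.4%. For day 3 the median moved from -0.07 to 0.08 and that share from 45.5% to 64.4%. Of 10 markers of hippocampal principal neurons, Neurod6 lay between 1.74 and 2.37 on all 8 arrays, but the list moved with the groups. In it 1 rose and 6 fell on day 1, 6 rose and 1 fell on day 3, and 2 rose and 4 fell on day 7. The list medians were -0.28, 0.20 and -0.21, where 34.8%, 50% and 61% of all genes were called. Prox1 of this list was not well above background on any day 1 or day 7 array. Markers of other tissues moved as well. All 12 tested striatum markers rose on day 1 (median 3.29). All 17 tested choroid plexus markers fell on day 1 (median -4.79) and 16 of 17 on day 7 (median -3.93). Of 10 markers of leptomeninges and fibroblasts, 9 fell on day 1 and all 10 on days 3 and 7. All 9 red blood cell markers rose at each time. The 8 arrays lay on 1 slide with normoxia and day 1 in one row and day 3 and day 7 in the other, so slide row and exposure cannot be told apart in comparisons across rows.

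The ligand and receptors best known from blood vessel endothelium were higher in every exposed group. Vegfa, Kdr, Flt1 and Vegfc rose at each of the 3 times, Nrp1 fell on days 1 and 7, and Vegfb was lost from detection on day 3 alone. On day 1, 8 of the 14 tested member probes rose and 2 fell, where 15.1% of all probes tested rose and 19.2% fell (34.2% called). On day 3, 7 rose and 2 fell, against 22.7% and 27.2% of all probes (49.9% called). On day 7, 7 rose and 3 fell, against 29.6% and 31.4% (61% called). Of the probes that fell on day 1, Nrp2 was tested only because its normoxia arrays passed the background filter. The median difference of the member probes from normoxia was 0.57, 0.34 and 0.39 on days 1, 3 and 7, while that of all probes was -0.06, -0.07 and -0.07. Vegfa supplies 4 of these probes. With each gene taken at its brightest probe, 5, 4 and 4 of 9 genes rose and 2, 2 and 3 fell (34.8%, 50% and 61% of all genes called). The gene medians were 0.33, 0.11 and 0.30, against -0.07, -0.05 and -0.03 over all genes. The remaining probe, for Figf, was well above background on only 2 of 8 arrays and was not tested. The 8449 probes called on day 1 dropped to between 4667 and 5461 when any 1 normoxia or day 1 array was left out, while the member probes called stayed at 9 or 10. In bulk tissue, fewer cells of a type and less RNA per cell cannot be told apart.

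**Figure D1:**
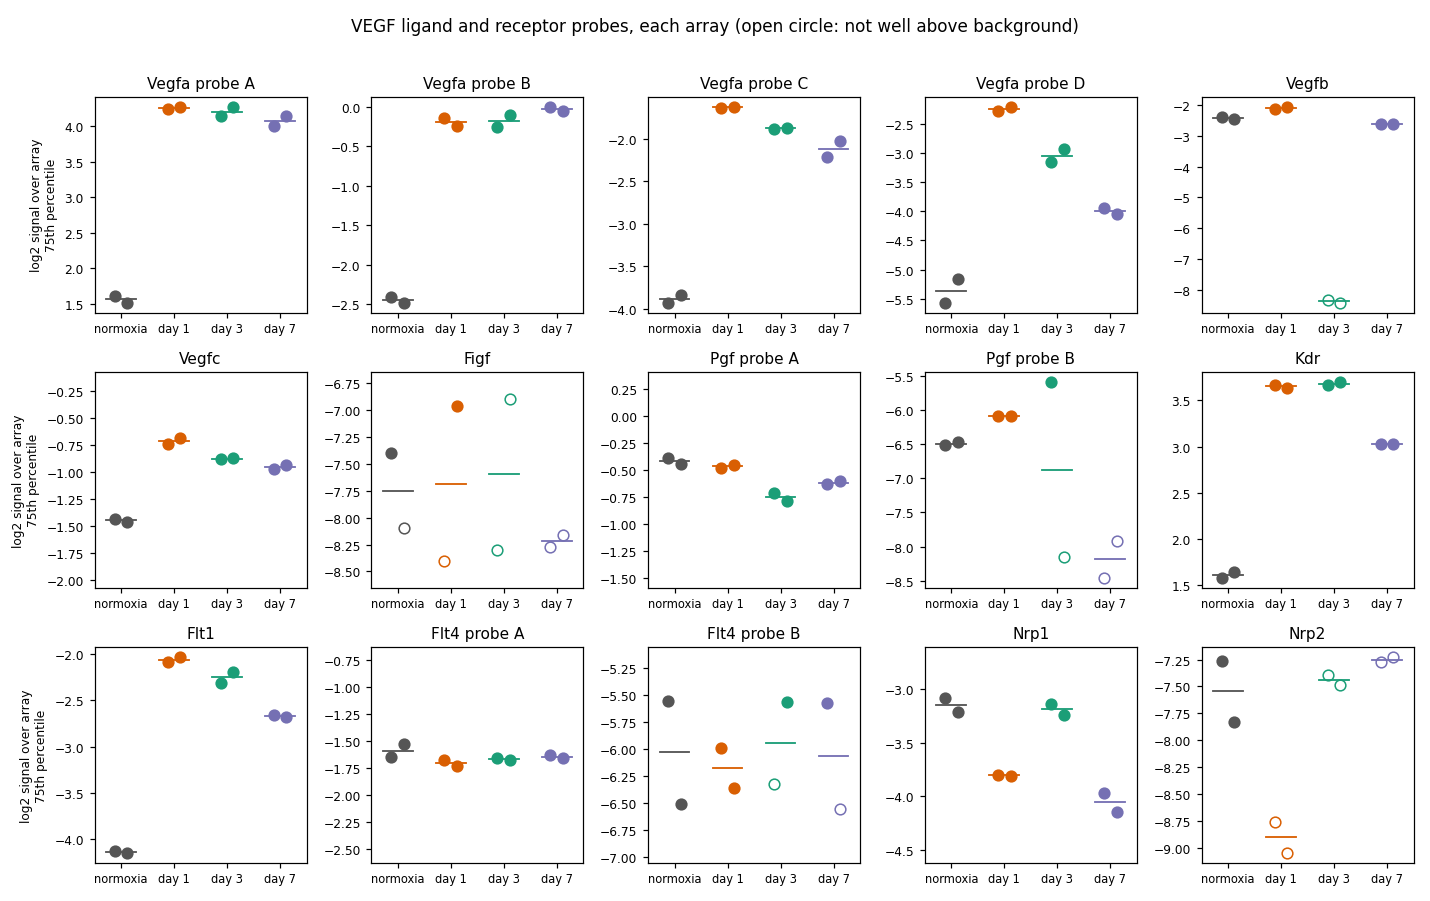
Log2 processed signal over the array's 75th percentile (vertical axis, own scale in each panel) for all 15 probes on the 2 arrays of normoxia, day 1, day 3 and day 7; bars are group means and open circles are arrays where the probe was not well above background. The 4 Vegfa probes, Kdr, Flt1 and Vegfc lie above normoxia on all 6 exposed arrays, and Vegfb drops from between -2.63 and -2.05 to -8.32 and -8.42 on day 3.

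**Figure D2:**
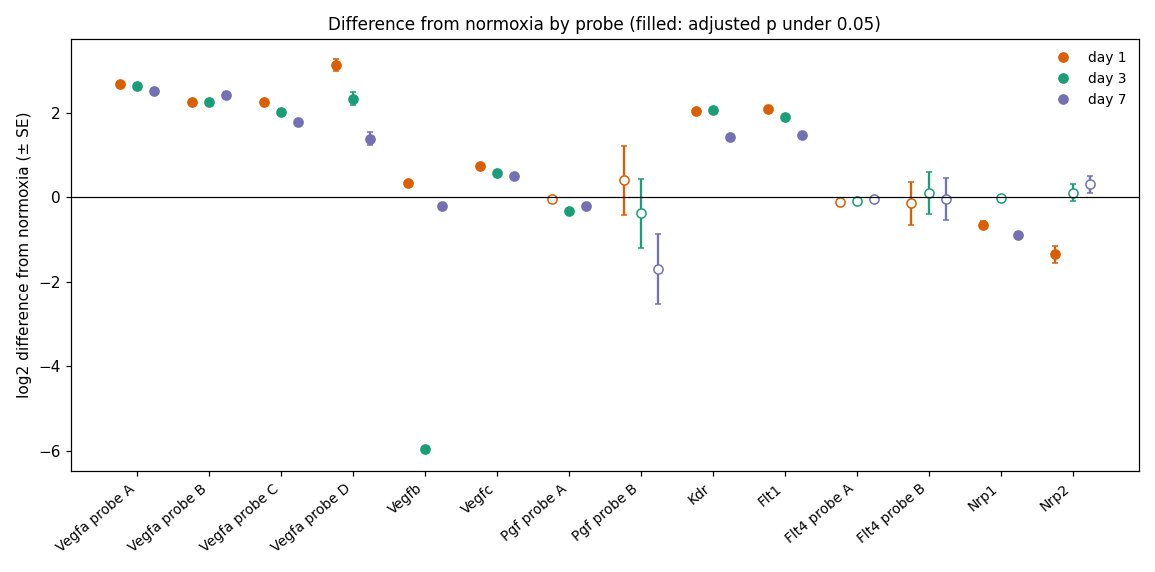
Log2 difference of each exposed group from normoxia (vertical axis) with its standard error for the 14 tested probes; filled points passed an adjusted p under 0.05. Vegfa, Kdr and Flt1 stand between 1.38 and 3.13 at all times, and Vegfb on day 3 stands alone at -5.96.

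Vegfa, the ligand that both Kdr and Flt1 bind, was read by 4 probes at separate places of the gene, and all 4 rose in every exposed group. By their position on the plus strand of the rn4 build, which the scanner files use, they lie in the order C (chr9:10527602-10527661), B (chr9:10528551-10528610), D (chr9:10531972-10532031) and A (chr9:10535933-10535992). Which exon or untranslated region each covers was not analysed here. Probe A stood at 1.61 and 1.52 in normoxia, then 4.23 and 4.27 (day 1), 4.14 and 4.26 (day 3) and 4.0 and 4.14 (day 7). Every exposed array lay far above both normoxia arrays, and the exposed groups overlapped or nearly met. The differences from normoxia were 2.68 ± 0.07 (SE, 2 arrays against 2; adjusted p = 4.41e-05), 2.64 ± 0.07 (5.61e-05) and 2.50 ± 0.07 (3.01e-05), which are 6.43-, 6.23- and 5.67-fold. Only 45, 32 and 32 of the 24678 probes rose more.

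The other 3 Vegfa probes gave the same direction with different time courses. Probe B went from -2.41 and -2.48 to -0.15 and -0.24 (day 1), -0.26 and -0.11 (day 3) and 0.00 and -0.05 (day 7), a difference of 2.24, 2.26 and 2.41 ± 0.07 (adjusted p 5.73e-05, 6.80e-05 and 2.98e-05). Like probe A it showed no called difference between exposed groups: day 3 minus day 1 was -0.05 for probe A (95% interval -0.22 to 0.13) and 0.01 for probe B (-0.15 to 0.18), and day 7 minus day 3 was -0.13 (-0.31 to 0.04) and 0.16 (-0.01 to 0.32). Probe D behaved otherwise. It stood at -5.57 and -5.17 in normoxia, then -2.27 and -2.20 (day 1), -3.16 and -2.92 (day 3) and -3.94 and -4.04 (day 7), with no overlap between any groups. Its rise shrank from 3.13 ± 0.15 (adjusted p = 0.000248) to 2.33 ± 0.15 (0.000364) and 1.38 ± 0.15 (0.000883). Both steps down passed the test, at -0.80 ± 0.15 from day 1 to day 3 (0.00854) and -0.95 ± 0.15 from day 3 to day 7 (0.0067).

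Probe C lay between these patterns. It read -3.93 and -3.84 in normoxia, then -1.64 and -1.62 (day 1), -1.88 and -1.87 (day 3) and -2.21 and -2.03 (day 7), so the groups followed each other downwards after day 1 without overlap. Its rises were 2.26, 2.01 and 1.77 ± 0.07 (adjusted p 6.59e-05, 9.21e-05 and 5.15e-05). The steps between exposed groups were both -0.24 ± 0.07 (adjusted p 0.0334 and 0.0406), and both calls were lost without any one day 1 or day 3 array (adjusted p 0.0986 to 0.125 for the first step and 0.0779 to 0.129 for the other). The later call was also lost without either normoxia array (0.0587 each) or day 7 replicate 1 (0.102), and passed in 6 of 18 settings. Both were lost under quantile normalization (-0.18 and -0.14), median centring (-0.12 and -0.10) and normexp (-0.20 and -0.12). Probe C has 1 spot on each array.

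Kdr, the receptor through which Vegfa mainly signals, rose to the same level on day 1 and day 3, within its spread, and less on day 7. Its levels were 1.58 and 1.64 in normoxia, then 3.67 and 3.63 (day 1), 3.66 and 3.70 (day 3) and 3.03 and 3.03 (day 7). Day 1 and day 3 overlapped, day 7 lay below both, and normoxia lay below all. The differences from normoxia were 2.04 ± 0.04 (4.11-fold, adjusted p = 2.44e-05), 2.07 ± 0.04 (4.21-fold, 3.60e-05) and 1.42 ± 0.04 (2.68-fold, 3.12e-05). From day 1 to day 3 the difference was 0.04, with a 95% interval of -0.07 to 0.14, and it turned to -0.10 under quantile normalization and rose to a called 0.16 under median centring. From day 3 to day 7 Kdr fell by 0.65 ± 0.04 (adjusted p = 0.000681). The scanner files give no rn4 position for its probe.

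Flt1, the high-affinity decoy receptor, showed a similar course from a dimmer signal. Its probe (chr12:7957094-7957153, rn4, plus strand) read -4.13 and -4.15 in normoxia, then -2.09 and -2.03 (day 1), -2.31 and -2.19 (day 3) and -2.66 and -2.68 (day 7). No groups overlapped, and the order was day 1, day 3, day 7 and normoxia. Flt1 was 2.08 ± 0.05 above normoxia on day 1 (4.22-fold, adjusted p = 4.42e-05), 1.89 ± 0.05 on day 3 (3.71-fold, 6.58e-05) and 1.47 ± 0.05 on day 7 (2.77-fold, 4.80e-05). The step of -0.19 from day 1 to day 3 had an adjusted p of 0.0374 and did not pass under quantile normalization (0.221), median centring (0.426) or normexp (0.0734), with only the groups compared (0.105), with no filter (0.0545), with an intensity trend (0.0507), with the replicate number as a block (0.0516) or in 7 of 8 fits that left out 1 array (0.0584 to 0.164), the exception being the fit without day 3 replicate 2. That of -0.42 from day 3 to day 7 passed (0.00382), and was -0.18 with an adjusted p of 0.135 under normexp background correction. The Flt1 probe reads this stretch of the transcript.

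Flt1: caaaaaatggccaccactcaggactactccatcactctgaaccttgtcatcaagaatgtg

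Because Vegfa, Kdr and Flt1 rose together, the 250 bases before the start of each gene are printed from RefSeq (build GRCr8). They lie at chr9:22452604-22452853 for the upstream of the 2 listed Vegfa starts, chr14:32571813-32572062 for Kdr and chr12:12333180-12333429 for Flt1, all on the plus strand. Capitals mark the HIF core letters ACGTG or GCGTG on either strand, a reverse-strand match reading CACGT or CACGC.

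Vegfa: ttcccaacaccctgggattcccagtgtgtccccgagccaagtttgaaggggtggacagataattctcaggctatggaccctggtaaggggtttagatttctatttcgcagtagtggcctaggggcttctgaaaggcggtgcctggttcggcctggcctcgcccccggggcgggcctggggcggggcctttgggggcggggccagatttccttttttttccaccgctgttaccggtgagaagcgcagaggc
Kdr: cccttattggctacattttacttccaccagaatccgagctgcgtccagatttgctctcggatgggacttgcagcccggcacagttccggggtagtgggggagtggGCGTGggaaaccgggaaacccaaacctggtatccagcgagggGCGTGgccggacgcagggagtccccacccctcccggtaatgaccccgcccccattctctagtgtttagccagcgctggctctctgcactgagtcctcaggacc
Flt1: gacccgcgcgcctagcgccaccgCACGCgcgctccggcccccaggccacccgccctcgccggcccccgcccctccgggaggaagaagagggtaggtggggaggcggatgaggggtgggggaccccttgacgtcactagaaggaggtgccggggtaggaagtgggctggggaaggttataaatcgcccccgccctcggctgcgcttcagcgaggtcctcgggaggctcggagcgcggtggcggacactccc

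Kdr held 2 matches to GCGTG, beginning 145 and 103 bases before the start, and Flt1 held 1, beginning 227 bases before it and lying on the reverse strand. The Vegfa window held none, nor did the window of its other listed start, which says only that these letters are not there. Across the family, 6 of 11 windows of the 10 genes held either core (Vegfb, Pgf, Kdr, Flt1, Nrp1 and Nrp2), against 36.7% of all 33469 windows of this length. All 7 matches were to GCGTG, which 25.9% of windows hold, and none to ACGTG, which 16.6% hold. The Flt1 window also held the cyclic AMP response element TGACGTCA (1.59% of windows) and TATAAA (12.9%), and the upstream Vegfa window held 3 matches to the GC box GGGCGG (30.5% of windows hold at least 1).

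Endothelial markers did not rise as a group to the same extent. Of 19 tested endothelial genes, 8 rose and 3 fell on day 1, 8 rose and 4 fell on day 3, and 9 rose and 4 fell on day 7, where 34.8%, 50% and 61% of all genes were called. The list medians were 0.03, 0.11 and 0.25 against -0.07, -0.05 and -0.03 over all genes. Under median centring the last 2 list medians became 0.25 and 0.55, with 10 rose and 3 fell on day 3 and 11 rose and 3 fell on day 7. The list's mean level read -1.51 and -1.54 for the normoxia arrays, -1.33 and -1.33 for day 1, -1.41 and -1.39 for day 3, and -1.39 and -1.61 for day 7.

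Single endothelial markers differed widely. Pecam1, an adhesion molecule of endothelial junctions, rose by 2.47, 1.88 and 1.54 ± 0.05 (adjusted p 2.77e-05, 6.45e-05 and 4.30e-05). Its levels were -0.11 and -0.08 in normoxia, then 2.37 and 2.38 (day 1), 1.78 and 1.79 (day 3) and 1.52 and 1.38 (day 7). Cdh5, the cadherin of the same junctions, differed by -0.18, 0.09 and 0.07 ± 0.18, and none of these passed (adjusted p 0.503, 0.71 and 0.767). The genes that fell, looked up after their values were seen, were Slco1a2, Mfsd2a and Abcg2 on day 1, Tie1, Tek, Eng and Abcg2 on day 3, and Tie1, Tek, Emcn and Eng on day 7. Beside Pecam1, the genes that rose on day 1 were Esam (1.52), Vwf (1.49), Cldn5 (1.01), Emcn (0.73), Eng (0.67), Sox18 (0.56) and Icam2 (0.52). The part of endothelial cell number in the rise of Kdr and Flt1 was not tested. On day 3 Kdr stood 2.07 and Flt1 1.89 above normoxia on the log2 scale, and the means of the lists of other tissue were as follows. The red blood cell list had a mean of 1.22 and 1.16 on that day against -1.71 and -1.73 in normoxia, and the list of leptomeninges and fibroblasts -1.99 and -2.07 against -0.85 and -0.96. The choroid plexus list stood at -1.42 and -1.42 against -1.40 and -1.36, and the striatum list at -2.77 and -2.86 against -2.46 and -2.42. The part of other tissue in these rises was not tested.

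**Figure D3:**
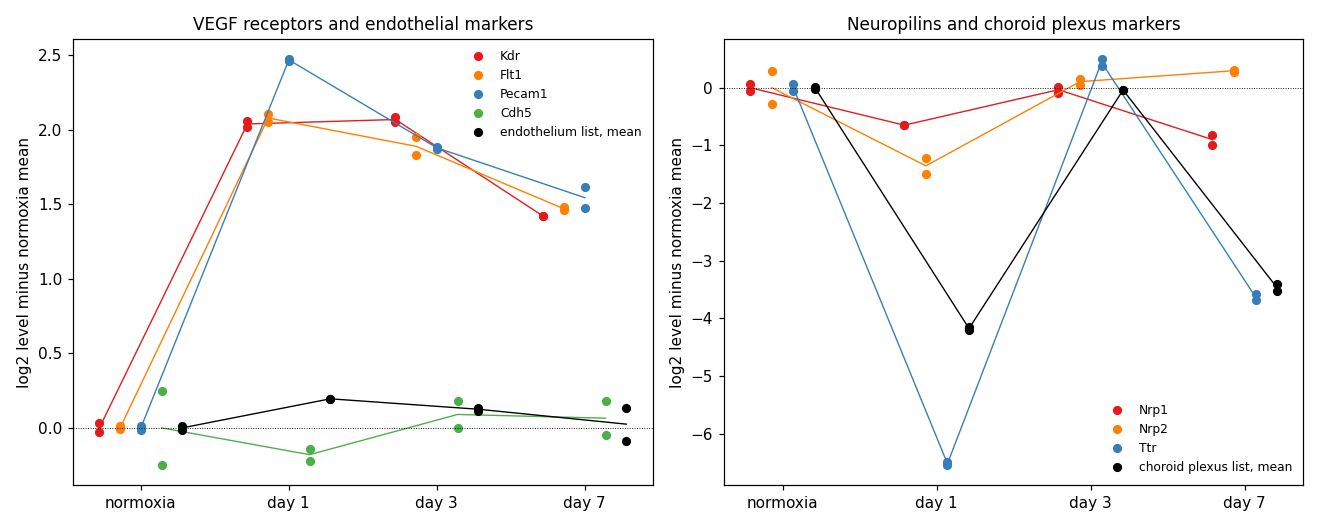
Log2 level minus the normoxia mean (vertical axis) on each array of the 4 groups; points are arrays and lines join group means. On the left Kdr, Flt1 and Pecam1 lie between 1.42 and 2.47 in the exposed groups while Cdh5 and the mean of the endothelium list stay near 0, and on the right Nrp1 is low on days 1 and 7, the times when Ttr and the choroid plexus list are low.

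Among the other ligands, Vegfb gave the widest swing of the family. Vegfb binds Flt1 and is linked to fatty acid uptake and to survival of vessels and neurons. Its probe (chr1:209657830-209657889, rn4, minus strand) read -2.38 and -2.45 in normoxia, then -2.12 and -2.05 (day 1), -8.32 and -8.42 (day 3) and -2.61 and -2.63 (day 7). Both day 3 arrays fell to background, and no groups overlapped. The loss was in every spot: the 4 day 3 spots, 2 on each array, had processed signals of 4.21 to 5.64, while those of the other groups had 423 to 534 in normoxia, 497 to 554 on day 1 and 211 to 240 on day 7. Local background around the day 3 spots was 27 to 32, as around the others, where it was 28 to 32.

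On day 3 Vegfb was not well above background, and its level was at least 29.9-fold lower than in normoxia (fitted difference -5.96, adjusted p = 1.40e-05). This bound sets the bright group's mean against the lowest signal that was well above background on the day 3 arrays. It was at least 37.5-fold lower than on day 1 (3.52e-06) and at least 25.9-fold lower than on day 7 (1.34e-05). Normexp background correction shrank the difference from normoxia to -2.47. Of the 104 tested probes that were off on both day 3 arrays and on in the other 6, Vegfb had the widest gap, at 5.69 between the nearest arrays, and was the only one with a gap of at least 4. The other times showed smaller movements. Vegfb was 0.33 ± 0.05 above normoxia on day 1 (adjusted p = 0.00942), a call lost without normoxia replicate 2 (0.0504) or day 1 replicate 2 (0.0583). It was 0.21 below on day 7 (0.0225), a call lost without normoxia replicate 1 (0.101), day 7 replicate 1 (0.0596) or day 7 replicate 2 (0.0849), and the sign turned to 0.09 under median centring.

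Probes of the 5 genes within 15000 bases of the Vegfb probe on rn4 did not share the day 3 loss. They differed from normoxia on day 3 by -0.18 (Dnajc4), -0.37 (Trpt1), 0.33 (Nudt22), 0.41 (Fkbp2) and 0.40 (Ppp1r14b). One probe represents Vegfb on this array, so no second probe can be set beside it.

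**Figure D4:**
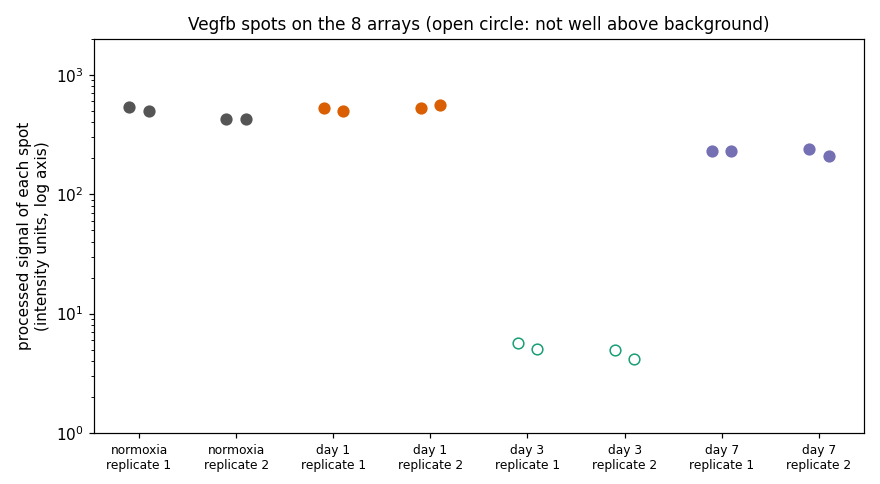
Processed signal in intensity units (vertical axis, log scale) of the 2 Vegfb spots on each of the 8 arrays; open circles are spots not well above background. The 4 day 3 spots lie between 4.21 and 5.64, and all 12 spots of the other arrays lie between 211 and 554.

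Vegfc, the ligand of lymphatic growth that binds Flt4, rose modestly at each time. It read -1.43 and -1.46 in normoxia, then -0.74 and -0.68 (day 1), -0.88 and -0.87 (day 3) and -0.97 and -0.93 (day 7). All exposed arrays lay above normoxia and their order was day 1, day 3 and day 7. The rises were 0.73 ± 0.04 (1.66-fold, adjusted p = 0.000355), 0.57 ± 0.04 (1.48-fold, 0.00044) and 0.49 ± 0.04 (1.40-fold, 0.000324). The step of -0.17 from day 1 to day 3 passed (0.0189) and was lost without day 1 replicate 2 (0.102), day 3 replicate 1 (0.0803) or day 3 replicate 2 (0.0621). It was also lost under median centring (-0.05, 0.445), quantile normalization (-0.13, 0.0527), normexp (-0.13, 0.0995) and with only the groups compared (0.0515). That of -0.08 from day 3 to day 7 did not pass (0.178).

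Pgf, the placental growth factor that binds Flt1, gave a small fall on its bright probe. Pgf probe A (chr6:109215543-109215602, rn4, minus strand) read -0.39 and -0.44 in normoxia, then -0.48 and -0.45 (day 1), -0.71 and -0.79 (day 3) and -0.63 and -0.60 (day 7). Day 1 almost met normoxia, and days 3 and 7 lay below both. The difference was -0.05 on day 1 (95% interval -0.16 to 0.07), -0.33 ± 0.04 on day 3 (adjusted p = 0.0029) and -0.20 ± 0.04 on day 7 (0.0123). The day 7 call turned to 0.10 under median centring and was lost without normoxia replicate 1 (0.0603) or day 7 replicate 1 (0.0513). Pgf probe B, dimmer, read -6.51 and -6.47 in normoxia, then -6.09 and -6.08 (day 1), -5.58 and -8.16 (day 3) and -8.46 and -7.92 (day 7). The day 3 arrays disagreed, both day 7 arrays were not well above background, and no difference passed (adjusted p 0.741, 0.727 and 0.128). Under normexp the probe B differences on days 3 and 7 turned to 0.42 and 0.36 and were called (0.0145 and 0.0205). Leaving out day 3 replicate 1 made its day 3 difference -1.67 with an adjusted p of 0.00873, and leaving out day 3 replicate 2 made it 0.91. Leaving out either day 3 array also made its day 7 difference of -1.70 pass (0.0023 each).

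Figf, the other ligand of Flt4, was near background throughout. It read -7.40 and -8.10 in normoxia, then -8.40 and -6.97 (day 1), -8.30 and -6.90 (day 3) and -8.27 and -8.16 (day 7). Only the higher array of normoxia and that of day 1 were well above background, so no difference is given.

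Flt4, the receptor of Vegfc and Figf and mainly a lymphatic receptor in the adult, did not pass the test on either probe. Probe A (chr10:35111685-35111744, rn4, plus strand) read -1.65 and -1.53 in normoxia, then -1.68 and -1.73 (day 1), -1.66 and -1.68 (day 3) and -1.63 and -1.66 (day 7). Its 95% intervals for the difference were -0.25 to 0.02, -0.21 to 0.05 and -0.19 to 0.08. The day 7 difference of -0.05 became a called 0.24 under median centring and a called 0.13 once a trend with probe GC content was removed. Probe B was dim and uneven, from -6.56 to -5.55, with overlap among all groups. Under normexp it was called higher than normoxia on day 3 (0.47, adjusted p 0.0195) and day 7 (0.54, 0.00799). It was also called higher on day 3 than on day 1 there (0.44, 0.0256). Of the 3 tested lymphatic endothelium markers, only Pdpn, which other cell types also express, was called, at -0.18 on day 1 and 0.48 on day 7, while Prox1 and Lyve1 did not pass at any time.

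Nrp1, the co-receptor that strengthens Vegfa signalling through Kdr, fell on days 1 and 7 and not on day 3. The means of its spots, of which 10 were printed and at least 8 used on each array, were -3.09 and -3.22 in normoxia, then -3.80 and -3.81 (day 1), -3.14 and -3.24 (day 3) and -3.97 and -4.14 (day 7). Day 3 overlapped normoxia, and days 1 and 7 lay below both. The differences from normoxia were -0.65 ± 0.08 on day 1 (adjusted p = 0.0038), -0.03 on day 3 (95% interval -0.24 to 0.17) and -0.90 ± 0.08 on day 7 (0.000434). The day 3 difference turned to 0.11 under median centring and stayed uncalled. Nrp1 rose by 0.62 from day 1 to day 3 (0.00246) and fell by 0.87 from day 3 to day 7 (0.00155). Its probe matches an rn4 interval longer than itself (chr19:58482301-58482792, plus strand) and has this sequence, shown because it is the single probe behind the finding.

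Nrp1: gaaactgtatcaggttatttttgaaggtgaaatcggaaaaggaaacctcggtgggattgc

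The choroid plexus list was also low on days 1 and 7 and near normoxia on day 3, but it was lowest on day 1, whereas Nrp1 was lowest on day 7. Its mean level read -1.40 and -1.36 for the normoxia arrays, -5.53 and -5.58 for day 1, -1.42 and -1.42 for day 3, and -4.91 and -4.79 for day 7. All 17 tested markers fell on day 1. On day 3, 6 rose and 5 fell, and on day 7, 16 fell and 1 rose. Ttr, which carries thyroid hormone and dominates choroid plexus RNA, read 6.83 and 6.96, 0.35 and 0.40, 7.39 and 7.28, and 3.32 and 3.21 in the same group order, and it differed from normoxia by -6.52, 0.44 and -3.63 ± 0.07 (adjusted p 5.36e-06, 0.0053 and 2.26e-05). Whether the choroid plexus content of the samples has a part in the Nrp1 result was not tested.

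Nrp2, the co-receptor for Vegfc and for semaphorins, was at the edge of detection. It read -7.26 and -7.83 in normoxia, then -8.76 and -9.04 (day 1), -7.39 and -7.49 (day 3) and -7.27 and -7.23 (day 7). The normoxia arrays alone were well above background, and the day 1 arrays lay lowest. Nrp2 was tested only because both normoxia arrays passed the background filter, each with 1 of 2 spots well above background. A fall from normoxia was therefore favoured by the filter, and its p-value is no support for one. On day 1 Nrp2 was at least 1.41-fold lower than in normoxia (fitted difference -1.35, adjusted p = 0.00691). That call ended under normexp background correction (-0.04, 0.673). The differences on days 3 and 7 were 0.11 and 0.30 and did not pass (0.696 and 0.263). They were called higher under quantile normalization (0.61 and 0.82, adjusted p 0.0276 and 0.008) and normexp (0.46 and 0.67, 0.00143 and 0.000164), and the day 3 value was called lower in the authors' values (-0.38, 0.0305). Leaving out normoxia replicate 1 made the day 7 difference 0.58 with an adjusted p of 0.0264. All 6 exposed arrays were not well above background, so differences among them carry no fold.

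Of the genes that VEGF is known to induce in endothelium, tip cell genes among them, most of those called rose. The list was chosen with earlier results of these data known, so its counts are only a description. Of 12 tested, 7 rose and 1 fell on day 1, 7 rose and 2 fell on day 3, and 8 rose and 1 fell on day 7 (34.8%, 50% and 61% of all genes were called), with medians of 0.59, 0.53 and 0.65. Angpt2, which loosens vessels by opposing Tie2 signalling, rose by 5.22, 3.23 and 1.56 ± 0.05 (adjusted p 4.10e-06, 1.87e-05 and 3.27e-05), from -3.81 and -3.82 in normoxia to 1.41 and 1.39 (day 1), -0.55 and -0.61 (day 3) and -2.21 and -2.30 (day 7). Dll4, the Notch ligand of tip cells, rose by 2.17, 1.97 and 2.05 ± 0.05. Apln, the apelin peptide, rose by 2.13, 0.89 and 0.88, and Nid2, a basement membrane protein, by 1.13, 1.73 and 0.94. The single gene that fell was Esm1 on day 1 (-0.85) and Nr4a1 on day 7 (-0.28), and those on day 3 were Nr4a1 (-0.13) and Plaur (-1.43), looked up after their values were seen. Under median centring none fell on day 7. Esm1, a secreted tip cell marker, then rose on day 3 (0.41) and day 7 (1.62).

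Antagonists and negative regulators moved both ways. Of 13 tested, 4 rose and 4 fell on day 1, 3 rose and 5 fell on day 3, and 2 rose and 7 fell on day 7, against 34.8%, 50% and 61% of all genes called. The medians were 0.00, -0.10 and -0.31, and under median centring the last 2 became 0.05 and -0.02, with 3 genes that rose and 5 that fell on day 7. Adamts1, a protease that binds and sequesters Vegfa, rose by 2.90, 1.46 and 0.59 ± 0.03 (adjusted p 6.15e-06, 4.63e-05 and 0.000128). Ptprj, a phosphatase that dephosphorylates Kdr, fell by 0.42 on day 1 and then rose by 1.31 and 0.31. Timp3, which blocks Vegfa binding to Kdr, differed by -0.11 on day 1, which did not pass (0.0734), and was lower on days 3 and 7 (-0.81 and -1.68). Ctgf, a matrix protein that binds Vegfa, rose by 0.24 on day 1 and fell by 0.74 and 0.46 later.

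Genes acting below the receptors were divided. Of 33 tested, 13 rose and 4 fell on day 1, 12 rose and 10 fell on day 3, and 13 rose and 13 fell on day 7, where 34.8%, 50% and 61% of all genes were called. The medians were 0.12, -0.04 and -0.17, and the last 2 became 0.11 and 0.13 under median centring, where 15 rose and 9 fell on day 3 and 14 rose and 9 fell on day 7. Nos3, the endothelial nitric oxide synthase, rose by 1.75, 1.29 and 0.20 ± 0.04 (adjusted p 4.28e-05, 9.24e-05 and 0.0128). Akt1, a survival kinase, rose by 0.37 on day 1 and was lower on days 3 and 7 (-0.51 and -1.17). Pik3r1, a regulatory subunit of PI3 kinase, rose by 0.68, 0.69 and 0.80.

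Regulators of Vegfa transcription and mRNA stability changed less than Vegfa itself. Of 17 tested, 7 rose and 3 fell on day 1, 7 rose and 3 fell on day 3, and 8 rose and 4 fell on day 7 (34.8%, 50% and 61% called over all genes), with medians of 0.06, 0.13 and -0.10, the last of which was 0.20 under median centring. Egln1, the prolyl hydroxylase that marks HIF for destruction and is itself a HIF target, rose by 1.15 and 0.46 on days 1 and 3 and differed by -0.10 on day 7, which did not pass (0.179). Egln2, a related hydroxylase, rose by 0.36 on day 1 and fell by 0.36 and 0.86 later. Vhl, which binds hydroxylated HIF, rose by 0.41, 0.22 and 0.62. Elavl1 (HuR), which binds and stabilises Vegfa mRNA, rose by 0.51, 0.61 and 1.18.

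Partners of the neuropilins and of Flt4 did not move one way. Of 10 class 3 semaphorins and plexins tested, 3 rose and 3 fell on day 1, 3 rose and 4 fell on day 3, and 2 rose and 4 fell on day 7, and the called shares of all genes were 34.8%, 50% and 61%. Plxna3, a neuropilin-bound semaphorin receptor, fell at each time (-0.31, -1.23 and -1.35), and Plxnd1, a semaphorin receptor of endothelium, rose by 0.55, 0.47 and 0.50. Sema3f, a ligand of Nrp2, rose by 0.92 on day 1 and fell by 0.42 and 0.49 later, while Sema3b fell by 0.32, 0.31 and 0.76.

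Of 9 genes of VEGF-C and VEGF-D processing, co-receptors and receptor trafficking, 2 rose and 3 fell on day 1, 2 rose and 2 fell on day 3, and 3 rose and 2 fell on day 7, beside 34.8%, 50% and 61% of all genes called. Itga9, an integrin subunit that binds Vegfc, rose by 0.43, 0.67 and 0.80. Myo6, a motor for endocytic vesicles, differed by 0.08 on day 1, which did not pass (0.394), and rose by 0.56 and 1.01 later. Gipc1, an adaptor that binds the tail of Nrp1, rose by 0.30 on day 1, differed by -0.07 on day 3, which did not pass (0.297), and fell by 0.66 on day 7. Gpc1, a heparan sulfate proteoglycan, fell by 0.39 on day 1, differed by 0.07 on day 3, which did not pass (0.259), and rose by 0.54 on day 7.

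**Figure D5:**
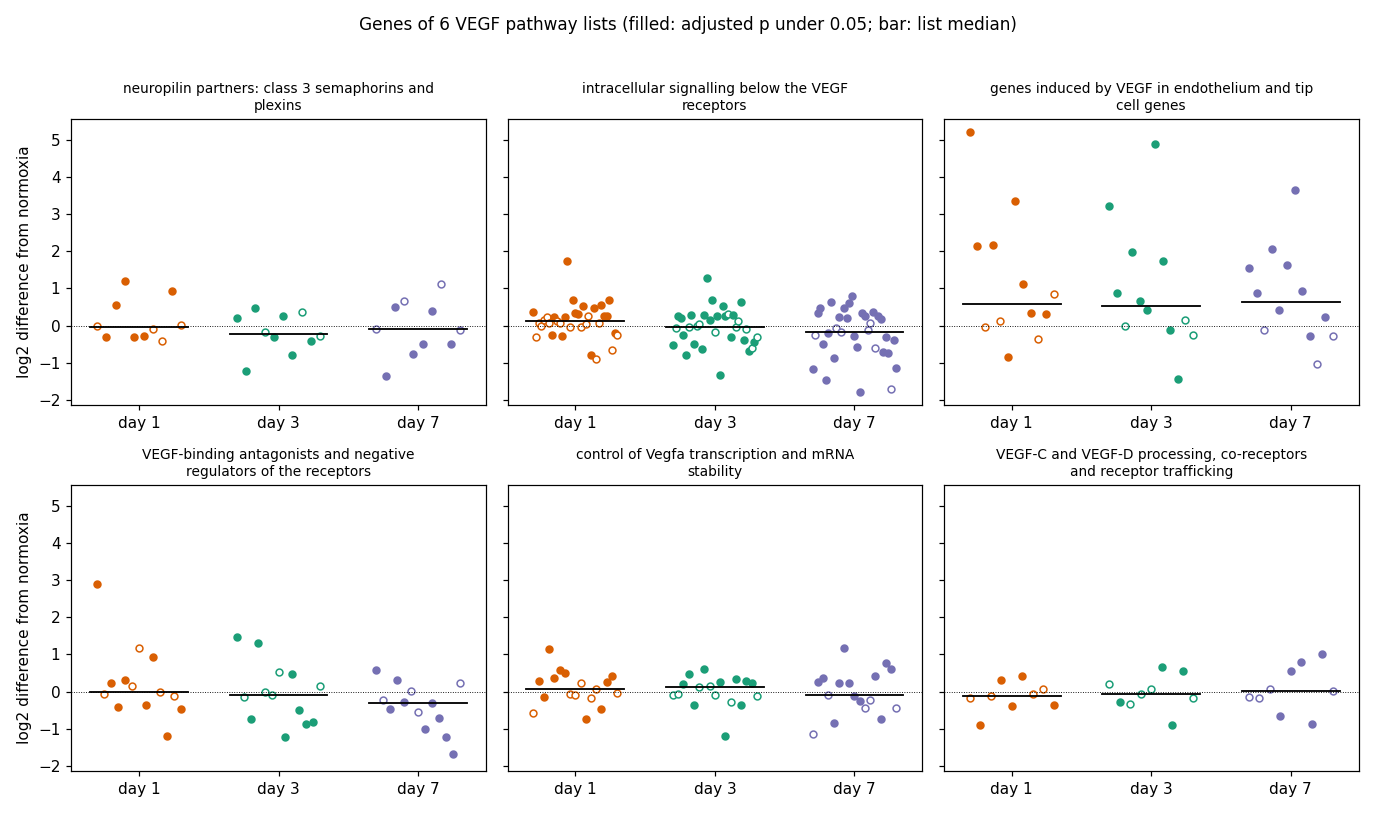
Log2 difference from normoxia (vertical axis) of each tested gene of 6 pathway lists on days 1, 3 and 7; filled points passed an adjusted p under 0.05 and black bars are list medians. The genes induced by VEGF have medians of 0.59, 0.53 and 0.65, and the medians of the other 5 lists lie between -0.31 and 0.13.

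Between exposed groups, member probes were called about as often as all probes, and 6 and 8 of 14 were not called. From day 1 to day 3, 2 of 14 probes rose and 6 fell (26.7% and 24.3% of all probes, 51% called). From day 3 to day 7, 1 rose and 5 fell (22.3% and 18.9%, 41.2% called). By gene, 2 of 9 rose and 4 fell in the first step, and 1 rose and 3 fell in the other. A fit with 1 probe per gene called 10913 of all 21296 genes in the first step and 9034 in the other. The day 1 to day 3 calls of Vegfa probe C, Vegfc and Flt1 were lost under quantile normalization, median centring and normexp. Of all called probes, 52.4% and 54.1% were higher in the later group, and 66.1% and 75% under median centring. The probes that fell from day 1 to day 3 were Vegfa probes C and D, Vegfb, Vegfc, Pgf probe A and Flt1, and those from day 3 to day 7 were Vegfa probes C and D, Kdr, Flt1 and Nrp1. Genes outside the family traced some members closely over the 8 arrays. Among 2442 genes with a difference of at least 1 from normoxia in some group, the level of Kdr was most like that of Ankrd37 (Pearson r = 0.9992), Notch4 (0.9977) and Arhgef15 (0.9972). Vegfa probe A was most like Apold1 (0.9971), Fn1 (0.9957) and Dll4 (0.9946), and Flt1 was most like Pla1a (0.9971), Notch4 (0.9956) and Ccl6 (0.9949). Vegfb was most like Seli (0.969), which differed by -2.34 on day 3, and Nrp2 was most like Paqr5 (0.9689). These likenesses describe 8 arrays that share their groups, and they have no test.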

How the data were processed

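Cy3-labelled hippocampal RNA was hybridised by the authors to 1-colour Agilent 8X60K rat arrays, 1 array a sample. The deposited scanner files hold, per the file headers, each spot's processed signal intensity, which Agilent Feature Extraction 11.5.1.1 made by subtracting background and detrending within the array, with no scaling between arrays. The deposited series values are log2 values of the authors whose scaling is unstated. Between 96.7% and 97.4% of them lay within 0.05 of log2 processed signal after 1 constant an array. They ran in the same direction as the signal, and the constants put them relative to each array's 75th percentile. Their column medians were -3.24 and -3.23 in normoxia, -3.27 and -3.26 for day 1, -3.34 and -3.39 for day 3, and -3.50 and -3.53 for day 7.

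Control and outlier spots were left out, log2 processed signals were averaged by probe, and each array's 75th percentile was subtracted. A probe was tested where some group had it well above background on both its arrays, which left 24678. One limma 3.58.1 model (R 4.3.3, lmFit and eBayes) with a mean for each of 4 groups gave 5 two-sided comparisons, Benjamini-Hochberg adjusted over all probes. The model had 4 residual degrees of freedom, so the groups share 1 estimate of spread. On simulated data for day 1 against normoxia, it recovered 2%, 32%, 72% and 80% of changes of 0.25, 0.5, 1 and 2 log2. There were 50 changed probes at each size and 5 false calls, so small changes were mostly missed in the simulation. In the data 8449 probes were called in this comparison, so the simulated recovery does not carry over to them. Small differences were called there, such as 0.33 for Vegfb. Promoter windows were searched in Python 3.11.15.

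Every member probe is reported. Of each pathway list, up to 4 called genes with the smallest p are named, with Angpt2, Pecam1, Cdh5 and Ttr always given and up to 3 genes most like each member that differed by at least 1. A gene that this rule names and a probe sequence are not reported here. Other genes were taken at their brightest probe. Members, lists and markers were chosen with earlier results of these data known. Replicate numbers follow accession order and pair nothing. Alternatives were quantile normalization, median centring, normexp on mean signal with offset 50, the authors' values, other filters, 1 probe per gene, an intensity trend, only the groups compared, a replicate block, removal of a GC trend and leaving out each array.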

Additional observations from a re-analysis of the deposited data

Results flagged for a closer look

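In all, 14 differences between exposed groups passed the direct test (limma, 2 arrays against 2). Each step had 14 tested member probes. Over all probes, 51% were called from day 1 to day 3 and 41.2% from day 3 to day 7. Not all of the 14 member differences held under other processing. The calls of Vegfa probe C in both steps, and of Vegfc and Flt1 from day 1 to day 3, were lost under quantile normalization, median centring and normexp. Day 1 and day 3 also lay in different slide rows, so slide row and time cannot be told apart in that step. The Vegfb probe stood out by size: its day 3 level was lower than on day 1 (-6.28) and day 7 was higher than day 3 (5.75), with the day 3 spots near background. Vegfa probe D was lower on day 3 than on day 1 (-0.80) and lower on day 7 than on day 3 (-0.95), and Vegfa probe C took both steps at -0.24. Vegfa probes A and B, of the same gene, passed neither step. Nrp1 was higher on day 3 than on day 1 (0.62) and lower on day 7 than on day 3 (-0.87); the choroid plexus markers were also low on days 1 and 7, though lowest on day 1. Flt1 was lower on day 3 than on day 1 (-0.19) and lower again on day 7 (-0.42), and Kdr was lower on day 7 than on day 3 (-0.65). Vegfc (-0.17) and Pgf probe A (-0.28) were lower on day 3 than on day 1. Nrp2 was higher on day 3 than on day 1 (1.46), where neither group was well above background. The causes were not tested.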

How the results depend on the processing

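Across 11 alternatives, 648 of 725 member differences kept their direction and side of the threshold, and 34 changed sign. Of those that kept their sign, 23 lost a call and 20 gained one. Some that changed sign also lost or gained a call under these alternatives. The rises of the 4 Vegfa probes, Kdr, Flt1 and Vegfc against normoxia passed under each of them and without any 1 array (highest adjusted p 0.00935). Of the counts under these alternatives, only 2 moved by over 1.5 times: member probes called from day 1 to day 3 were 5 under quantile normalization (8 as reported), and probes called from day 3 to day 7 were 5629 with only those groups fitted (10155 as reported).

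Sign changes against normoxia under quantile normalization were 0.083 (Flt4 probe B, day 1), 0.073 (Pgf probe B, day 3), 0.010 (Flt4 probe A, day 3), 0.11 (Nrp1, day 3), 0.0019 (Vegfb, day 7), 0.098 and 0.44 (Flt4 probes A and B, day 7), and Kdr from day 1 to day 3 was -0.10. Under median centring they were 0.070 (Flt4 probe A, day 3), 0.11 (Nrp1, day 3), 0.089 (Vegfb, day 7), 0.096 (Pgf probe A, day 7), 0.24 and 0.26 (Flt4 probes A and B, day 7), with 0.075 for Vegfa probe A from day 1 to day 3 and 0.013, 0.069 and 0.021 for Vegfa probe A, Vegfc and Flt4 probe B from day 3 to day 7. Under normexp they were 0.035 (Flt4 probe B, day 1), 0.42 and 0.094 (Pgf probe B and Nrp1, day 3), 0.36, 0.0045 and 0.54 (Pgf probe B and Flt4 probes A and B, day 7), with 0.0099, -0.065 and 0.22 for Vegfa probes A and B and Pgf probe B from day 1 to day 3 and 0.070 for Flt4 probe B from day 3 to day 7. The authors' values gave 0.13 for Pgf probe B and -0.38 for Nrp2 on day 3 and -0.19 for Nrp2 on day 7. Removing a GC trend gave 0.030 and 0.13 for Flt4 probe A on days 3 and 7 and -0.015 for Kdr from day 1 to day 3. Apart from Vegfb and Pgf probe A on day 7, none of these differences was called in the analysis reported. Some passed with the changed sign. Under normexp these were Pgf probe B on days 3 and 7 (adjusted p 0.0145 and 0.0205) and Flt4 probe B on day 7 (0.00799). The others were Flt4 probe A on day 7 under median centring (0.00817) and GC trend removal (0.0419), and Nrp2 on day 3 in the authors' values (0.0305). The causes were not tested.

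Leaving out 1 array gave 4667 to 8669, 9375 to 12529, 12679 to 15024, 9237 to 12798 and 7588 to 9263 probes called for days 1, 3 and 7 against normoxia, day 3 against day 1 and day 7 against day 3, and 9 to 10, 9 to 10, 8 to 11, 5 to 7 and 5 to 6 member probes. The 5 from day 1 to day 3 came without day 1 replicate 2. Uncalled differences changed sign within these ranges: Flt4 probe B -0.62 to 0.33, -0.39 to 0.57, -0.54 to 0.46, -0.14 to 0.62 and -0.63 to 0.37 over the 5 comparisons, Flt4 probe A -0.11 to 0.0031 on day 7, Nrp1 -0.097 to 0.029, Nrp2 -0.18 to 0.39 and Pgf probe B -1.67 to 0.91 on day 3, and Vegfa probe A -0.11 to 0.015, Vegfa probe B -0.058 to 0.087 and Pgf probe B -2.08 to 0.51 from day 1 to day 3.

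With the replicate number as a block, the one member call lost was Flt1 from day 1 to day 3 (-0.19, adjusted p = 0.0516). The numbers pair nothing in the labels, and deviations of same-numbered arrays correlated between -0.14 and 0.04. Normexp raised the share of called probes that were higher on day 7 to 70.3% (day 3: 67.2%, day 1 to day 3: 69%) and median centring to 70.4%. Members near background (Figf, Nrp2, Pgf probe B, Flt4 probe B) are limited by signal over background.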
